A study of Mus musculus with 12 samples.

Results

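The genes described here are 7 of the 24062 in the count files, taken by symbol for their place on the output side of the circadian clock. The choice was made with earlier results of these data known. They are the PAR bZIP activators Dbp, Tef and Hlf, the bZIP repressor Nfil3, the basic helix-loop-helix repressors Bhlhe40 and Bhlhe41 (also called Dec1 and Dec2), and the nuclear receptor Rora. They were measured by poly(A) RNA sequencing in liver and in gastrocnemius, a calf muscle, of 6 female C57BL/6N mice on a chow diet. Of these animals, 3 were wild type (WT): animals 6 and 8, both 9.0 weeks old, and animal 9, 7.4 weeks old. The other 3 carried R135W on both copies of Mars2, the gene of the mitochondrial methionyl-tRNA synthetase, where it exchanges 1 amino acid: animal 5 at 9.0 weeks, animal 7 at 7.4 weeks and animal 12 at 8.6 weeks. Each tissue therefore had 2 groups of 3 libraries. The time of day of sampling, litters and batches were not given in the sources used here, and the part of the sampling time in the values of these rhythmic genes was not tested.

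In most cells the core clock is a loop in which CLOCK (or NPAS2) and BMAL1, the product of Arntl, switch on genes through a DNA motif called the E-box, and PER and CRY proteins shut them off again. The PAR bZIP genes are among the targets of that loop; their proteins then drive a second wave of daily transcription through the D-box, in liver largely of genes of drug, lipid and bile acid handling. NFIL3 binds the same D-box and represses, BHLHE40 and BHLHE41 compete with CLOCK and BMAL1 at the E-box, and RORA activates Arntl through the ROR element, against the REV-ERB repressors.

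In the promoter table from RefSeq (GRCm38.p6, windows from 250 bases before to 50 bases after a gene's start), 6 of the 7 genes were found, in 7 windows, since Tef has 2 starts. Each window was searched on both strands for the E-box CACGTG, the D-box TTATGTAA or TTACGTAA, and the ROR element TAGGTCA or TGGGTCA; none of these overlapped another in the stretches shown. Both Tef windows and the Bhlhe41 window held an E-box, a motif present in 7.15% of all 32851 windows. The stretches are shown because Tef and Bhlhe41 are called in liver below, with the E-box in capitals.
Tef start 1, E-box from position -127, chr15:81802526-81802571, plus strand: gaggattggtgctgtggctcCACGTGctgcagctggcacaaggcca
Tef start 2, E-box from position -138, chr15:81811256-81811301, plus strand: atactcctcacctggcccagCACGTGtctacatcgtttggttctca
Bhlhe41, E-box from position -153, chr6:145865548-145865593, minus strand: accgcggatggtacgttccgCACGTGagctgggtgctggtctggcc
Nfil3, ROR element on the opposite strand (capitals), from position -12, chr13:52981040-52981071, minus strand: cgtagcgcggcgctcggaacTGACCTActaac
The Nfil3 stretch is shown as the one ROR element among these windows, a motif present in 6.45% of all windows. No D-box, present in 1.06% of all windows, was in any of the 7. The windows of Dbp, Hlf and Rora held none of the 3 motifs, which says only that these letters are not in these 300 bases. A match is a description of sequence and not a measured binding site.

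Levels are CPM, the counts of a gene scaled to the size of its library. Changes are log2 fold changes of R135W against WT with their standard error (SE), tested with edgeR's quasi-likelihood test and Benjamini-Hochberg adjustment over all tested genes. A gene is called at an adjusted p under 0.05, and "rose" and "fell" are used of called genes alone. The p-values weigh a difference against the spread between the libraries of a group. In comparisons that hold both tissues, the 2 libraries of an animal were treated as independent, except where the animal was a block. Total counts ran from 20751583 to 30460237 per library. Hepatocyte marker genes summed to between 75908 and 95869 CPM in liver and to at most 51.5 CPM in muscle, and myofibre markers to at least 159482 CPM in muscle and at most 1.93 CPM in liver. Counts per gene do not read the base change in Mars2 and so do not check the genotype labels. Liver of WT animal 6 stood below the other WT livers for Dbp, Tef, Hlf and Bhlhe41, and calls that change without it are given both ways.

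In liver, Tef, Hlf and Bhlhe41 fell in R135W mice, to levels below every WT liver, and Dbp had the largest fitted decrease of the 7 genes without passing the test. In all, 3 of the 7 genes were called, each lower, where 0.524% of the 13935 genes tested were called lower and 2.76% higher. Since the 7 were chosen with earlier results of these data known, such shares are a description here and no independent support. At an unadjusted p under 0.05 the count was 4 of 7, against 17.6% of all genes. Bhlhe41 passed the filter on low counts through its WT livers alone. With it set aside, 2 of the other 6 were called, and the median log2 fold change over these 6 was -0.73. The groups did not overlap for 3 of 7, against 23.7% of all genes. The median log2 fold change over the 7 was -0.84, with 6 of 7 negative, beside a median of -0.01 over all genes, 50.7% of them negative.

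Tef, which encodes thyrotroph embryonic factor, was at 124, 184 and 213 CPM in liver of WT animals 6, 8 and 9, and at 78.7, 86.0 and 65.3 CPM in R135W animals 5, 7 and 12. All 3 R135W livers lay below the lowest WT liver. The means were 174 ± 45.5 and 76.7 ± 10.5 CPM (SD, n = 3 each), and Tef fell by 1.18 on the log2 scale (SE 0.20, edgeR adjusted p = 0.0210). The gene is on chromosome 15 from 81802673 to 81826863 on the plus strand (mm10, 5 exons).

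Hlf, hepatic leukemia factor, is on chromosome 11 from 90336535 to 90390917 on the minus strand (4 exons). Its liver level was 58.8, 76.6 and 67.4 CPM in WT animals 6, 8 and 9 and 33.8, 43.1 and 37.0 CPM in R135W animals 5, 7 and 12. The groups were apart, and both varied little among their animals. The means were 67.6 ± 8.92 and 38.0 ± 4.73 CPM (SD, n = 3 each), and Hlf fell by 0.84 on the log2 scale (SE 0.14, edgeR adjusted p = 0.0196).

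Dbp, the D-box binding PAR bZIP factor and one of the most rhythmic mRNAs known in liver, is on chromosome 7 from 45705247 to 45710203 on the plus strand (4 exons). It was at 18.7, 60.5 and 89.2 CPM in liver of WT animals 6, 8 and 9 and at 12.4, 19.2 and 5.97 CPM in R135W animals 5, 7 and 12. WT animal 6 lay among the R135W livers, just under animal 7, and the other 2 WT livers lay above all of them. The means were 56.1 ± 35.4 and 12.5 ± 6.64 CPM (SD, n = 3 each), with a log2 fold change of -2.17 (SE 0.56) and an edgeR adjusted p of 0.0815. Without the liver of WT animal 6 it was -2.59 with an adjusted p of 0.0265. Of Dbp's 1678 exonic bases, 539 (32.1%) overlap exons of the antisense gene Sphk2, and counting used no strand and credited a fragment to each gene it overlaps. Sphk2 had 1835 to 2889 counts in WT livers and 1893 to 2246 in R135W livers, a fitted log2 difference of -0.34 (SE 0.20, adjusted p = 0.433). Its part in the Dbp counts was not tested.

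Nfil3, the repressor at the D-box, is on chromosome 13 from 52967209 to 52981039 on the minus strand (2 exons). Its liver level was 33.4, 27.1 and 13.8 CPM in WT animals 6, 8 and 9 and 36.7, 37.9 and 29.8 CPM in R135W animals 5, 7 and 12. WT animal 6 lay within the R135W range and WT animal 9 far below it. Nfil3 was the only one of the 7 with a positive fitted change in liver, 0.49 (SE 0.28), and it was not called (edgeR adjusted p = 0.410). This value was 0.77 without WT animal 6 and 0.19 without WT animal 9.

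Summed per kilobase of exon, a scale on which different genes can be added, Dbp, Tef and Hlf came to 49.3, 90.9 and 113 CPM per kb in liver of WT animals 6, 8 and 9. In liver of R135W animals 5, 7 and 12 the sums were 31.0, 38.4 and 24.7, each below the lowest WT liver. Divided by Nfil3 per kilobase, this sum gave ratios of 2.94, 6.68 and 16.3 in the same WT livers and 1.68, 2.02 and 1.65 in the R135W livers. The R135W ratios spanned a narrow range below all WT ratios, while the WT ratios were spread widely. In muscle the ratios were 5.04, 9.24 and 8.71 in WT animals 6, 8 and 9 and 9.71, 11.4 and 6.92 in R135W animals 5, 7 and 12, and there the groups overlapped.

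**Figure D1:**
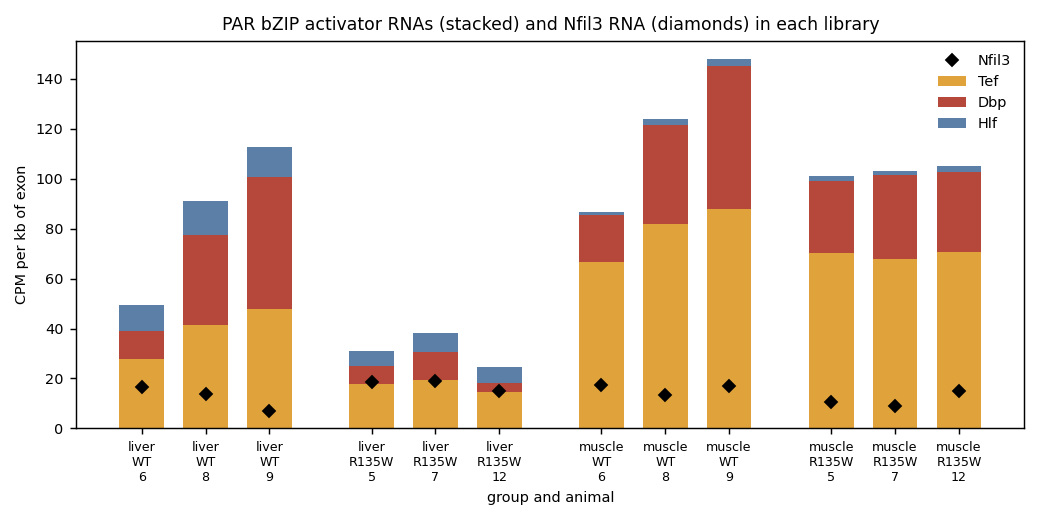
PAR bZIP activators and Nfil3 in each library, in CPM per kilobase of exon. Each library has 1 stacked bar of Tef, Dbp and Hlf, coloured by gene, and a black diamond for Nfil3. Libraries are labelled by group and animal. The R135W livers sit at the lowest activator sums (24.7 to 38.4 CPM per kb), and the muscle libraries lie between 86.8 and 148 CPM per kb with the genotypes mixed.

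Bhlhe41 RNA was barely detected in liver, with a lower level still in R135W. It is on chromosome 6 from 145858243 to 145865420 on the minus strand (5 exons). Its liver counts were 15, 29 and 41 in WT animals 6, 8 and 9 and 10, 9 and 9 in R135W animals 5, 7 and 12, so counting error is large. The exact Poisson 95% interval, which covers counting error alone, was 8.40 to 24.7 for the lowest WT count and 4.80 to 18.4 for the highest R135W count, and these overlapped. Scaled to library size the levels were 0.694, 1.41 and 1.62 CPM in WT and 0.371, 0.421 and 0.271 CPM in R135W, with the groups apart. The means were 1.24 ± 0.486 and 0.355 ± 0.0764 CPM (SD, n = 3 each), and Bhlhe41 fell by 1.83 on the log2 scale (SE 0.40, edgeR adjusted p = 0.0460). All 3 WT livers and none of the R135W livers reached the filter's level of 0.432 CPM before TMM scaling, so the gene entered this test through the group where it was higher, and its call is no independent support. With no filter its change was -1.83 with an adjusted p of 0.0358.

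Bhlhe40, its more abundant relative, is on chromosome 6 from 108660629 to 108666925 on the plus strand (5 exons). It was at 284, 198 and 223 CPM in liver of WT animals 6, 8 and 9 and at 246, 103 and 114 CPM in R135W animals 5, 7 and 12. R135W animal 5 lay within the WT range and the other R135W livers well below it. The log2 fold change was -0.61 (SE 0.32, edgeR adjusted p = 0.359). Without the liver of R135W animal 5 it was -1.12 with an adjusted p of 0.0296. Per kilobase, Bhlhe40 exceeded Bhlhe41 by a ratio of 271 to 805 in WT livers and 482 to 1306 in R135W livers.

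Rora, on chromosome 9 from 68653786 to 69388246 on the plus strand (14 exons), did not separate the livers. Its level was 58.2, 69.2 and 69.5 CPM in WT animals 6, 8 and 9 and 48.5, 47.3 and 83.5 CPM in R135W animals 5, 7 and 12. R135W animal 12 was the highest liver of all and the other 2 R135W livers the lowest. The log2 fold change was -0.14 (SE 0.21, edgeR adjusted p = 0.783). Leaving out 1 liver it ranged from -0.45 (without R135W animal 12) to -0.01, and it was called in none of these fits.

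Leaving out 1 liver library at a time changed which genes were called. With WT animal 6 left out 4 of the 7 were called, with Tef, Hlf and Bhlhe41 at adjusted p of 0.0140, 0.0265 and 0.0289 beside Dbp. With WT animal 8, WT animal 9 or R135W animal 12 left out none was called. Without R135W animal 5 Bhlhe40 alone was called, and without R135W animal 7 Hlf alone (adjusted p = 0.0418). Calls over all genes also dropped, from 457 with every liver kept. They numbered 285, 104 and 84 without WT animals 6, 8 and 9, and 266, 114 and 263 without R135W animals 5, 7 and 12. The log2 fold changes kept their sign in all 6 of these fits for Tef (-1.38 to -1.01), Hlf (-0.95 to -0.74), Bhlhe41 (-2.12 to -1.58) and Dbp (-2.63 to -1.67). Compared within an age, 1 R135W liver against 1 WT liver at 7.4 weeks and 1 against 2 at 9.0 weeks, the log2 differences were -1.31 and -0.97 for Tef. They were -0.64 and -1.002 for Hlf, -1.94 and -1.51 for Bhlhe41, and -2.21 and -1.68 for Dbp, all of them lower in R135W at both ages.

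Marker sums of some liver cell types separated the same groups, and those of others did not. Endothelial sums overlapped (WT livers 263 to 410 CPM, R135W livers 327 to 406 CPM). So did fibroblast and stellate cell sums (WT livers 222 to 274 CPM, R135W livers 247 to 259 CPM). By edgeR, 0 of 8 endothelial markers and 1 of 8 fibroblast and stellate cell markers were called, the latter higher. Of 16 macrophage markers tested, 13 rose in R135W liver, beside 2.76% of all genes called higher. Cd163 had the 1 negative change (-0.46) and was not called (edgeR adjusted p = 0.458). The 16 summed to 413 to 661 CPM over the WT livers and to 1095 to 1151 CPM over the R135W livers. No marker was at 0. The summed hepatocyte markers ran from 94492 to 95869 CPM over the WT livers and from 75908 to 82986 CPM over the R135W livers. None of the 8 was called by edgeR (1 at an unadjusted p under 0.05, 1 called by DESeq2, 0 by limma-voom). Their median log2 fold change was -0.19, with 6 negative and 2 positive, the latter being Tat and Cps1 (0.11 each). Summed T, NK and innate lymphoid cell markers ran from 6.87 to 8.66 CPM in WT livers and from 10.5 to 11.1 CPM in R135W livers, with none of 9 called by any of the 3 tools and an unadjusted p under 0.05 for 3. The 4 B cell markers summed to 4.63 to 7.59 and 8.35 to 12.9 CPM, with 0 called by edgeR or limma-voom, 1 by DESeq2 and 3 at an unadjusted p under 0.05. Over all genes in liver, 17.6% were at an unadjusted p under 0.05, and DESeq2 and limma-voom called 781 and 400 genes. In bulk tissue, fewer cells of a type and less RNA per cell cannot be told apart. The part of these shifts in the clock output genes was not tested.

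**Figure D2:**
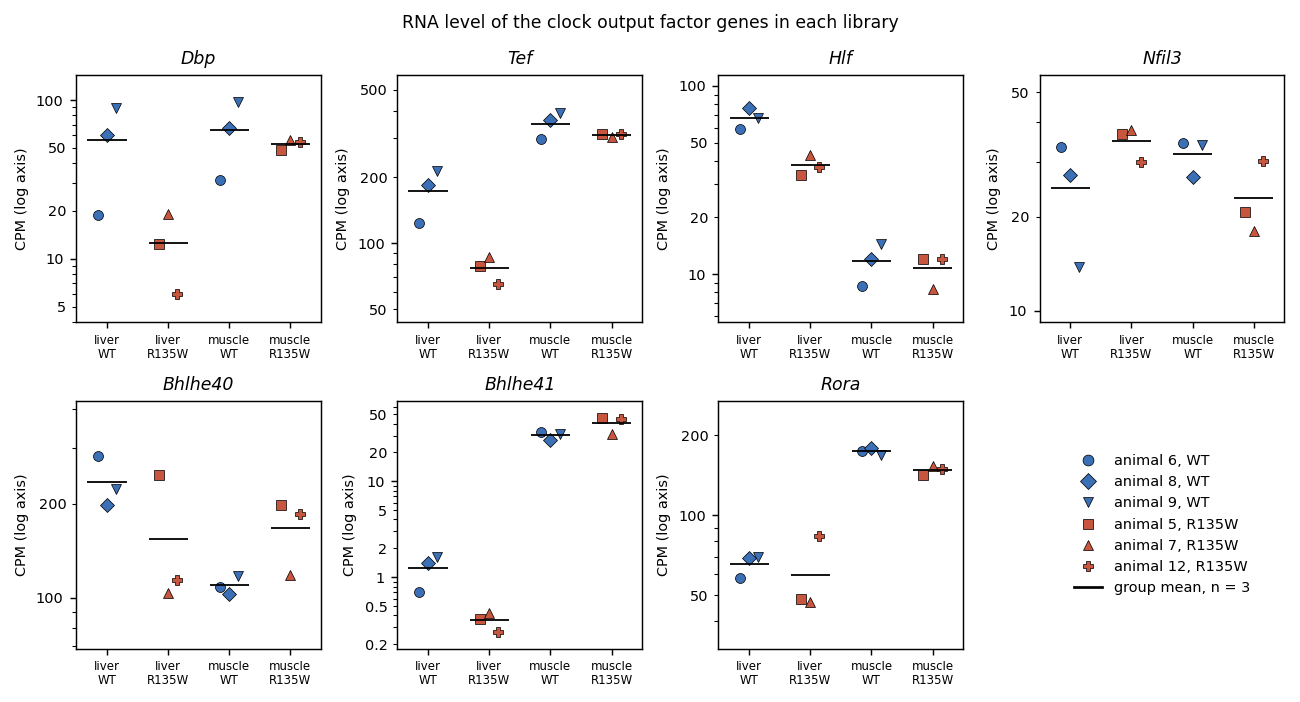
RNA level of the 7 genes in each library (CPM, log axis), by tissue and genotype, with a symbol for each animal and a bar at the group mean (n = 3). Tef, Hlf and Bhlhe41 show R135W livers below all WT livers, and the liver of WT animal 6 lies at 18.7 CPM for Dbp, among the R135W livers.

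In gastrocnemius none of the 7 genes was called by edgeR, where 0.875% of 13826 genes were, nor by DESeq2 or limma-voom. At an unadjusted p under 0.05 there were 4, against 11.5% of all genes: Bhlhe40 and Bhlhe41 with higher and Nfil3 and Rora with lower levels in R135W. The groups were apart for 2 of 7, Bhlhe40 and Rora, against 16.2% of all genes. In muscle the summed endothelial markers ran from 229 to 261 CPM in WT and from 284 to 312 CPM in R135W, with none at 0. Of 7 tested, 5 had a positive and 2 a negative change, and 4 were at an unadjusted p under 0.05, all higher. The 2 negative were Stab2 (-0.36) and Lyve1 (-0.35), neither called. By edgeR 1 was called: Kdr, a VEGF receptor gene, rose (0.77, SE 0.08, edgeR adjusted p = 0.00918). Kdr, Stab2 and Lyve1 are named after their values were seen. Summed T, NK and innate lymphoid cell markers ran from 5.17 to 6.65 CPM in WT muscles and from 7.33 to 8.43 CPM in R135W muscles. Only 2 of these 11 markers were tested in muscle, with opposite signs: Thy1 (0.41) and Cd3e (-0.29). Neither was called by any of the 3 tools. Cd3d, Ncr1 and Klrb1c were at 0 in all WT muscles. Macrophage markers overlapped in their sum (70.4 to 89.2 and 73.8 to 96.7 CPM). The part of these shifts in the 7 genes was not tested.

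The PAR bZIP genes overlapped between the genotypes in muscle. Dbp was at 31.3, 67.0 and 96.6 CPM in WT animals 6, 8 and 9 and at 48.2, 56.4 and 54.2 CPM in R135W animals 5, 7 and 12. WT animal 6 was again the lowest WT animal and below every R135W muscle, and the R135W muscles lay close together. The log2 fold change was -0.30 (SE 0.30, edgeR adjusted p = 0.771), and it turned to 0.10 without WT animal 9. Tef, at 297, 364 and 391 CPM in WT against 314, 303 and 314 CPM in R135W, had a fitted log2 difference of -0.18 and was not called (SE 0.09, adjusted p = 0.506). Hlf, at 8.64, 12.1 and 14.5 CPM in WT against 12.0, 8.32 and 12.0 CPM in R135W, had one of -0.13 (SE 0.20, adjusted p = 0.866), which turned to 0.05 without WT animal 9 and to 0.03 without R135W animal 7.

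Both Bhlhe genes were highest in muscle of the same 2 R135W animals. Bhlhe40 was at 108, 103 and 118 CPM in WT animals 6, 8 and 9 and at 199, 119 and 185 CPM in R135W animals 5, 7 and 12. R135W animal 7 lay just above the highest WT muscle and the other 2 far above it. The log2 fold change was 0.60 (SE 0.16, edgeR adjusted p = 0.171), and without R135W animal 7 it was 0.80 with an adjusted p of 0.0185. Bhlhe41 was at 32.3, 27.2 and 31.1 CPM in WT and at 46.0, 31.2 and 44.9 CPM in R135W, with animal 7 inside the WT range. Its log2 fold change was 0.43 (SE 0.14, adjusted p = 0.268). Within an age, the Bhlhe40 log2 difference was 0.01 at 7.4 weeks and 0.91 at 9.0 weeks, and that of Bhlhe41 was 0.00 and 0.63. Animal 7 is the 7.4-week R135W animal, so age and animal cannot be told apart here. A stretch of 118 exonic bases of Bhlhe40 (3.79%) overlaps 0610040F04Rik on the other strand, which was at 466 to 540 counts in WT and 606 to 995 in R135W muscle (log2 fold change 0.76, SE 0.18, adjusted p = 0.113), and its part in the Bhlhe40 counts was not tested.

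**Figure D3:**
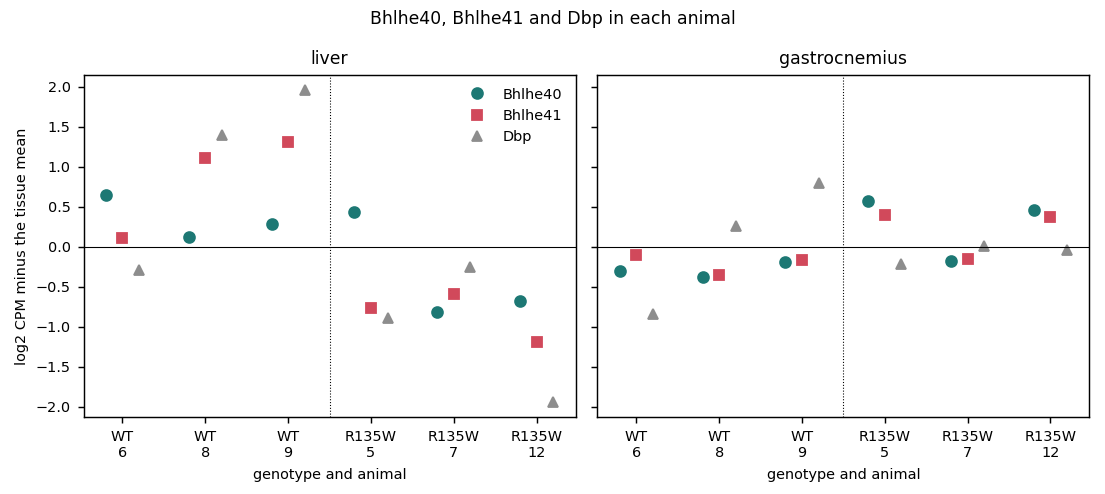
Bhlhe40, Bhlhe41 and Dbp in each animal, as log2 CPM minus the mean of the tissue's 6 libraries, liver at left and gastrocnemius at right, 1 point per gene and animal. In muscle the Bhlhe40 and Bhlhe41 points lie close together in every animal and are highest in R135W animals 5 and 12, while in liver Bhlhe41 lies nearer to Dbp than to Bhlhe40 in 4 of 6 animals.

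Relative to the mean of their tissue, Bhlhe40 and Bhlhe41 differed from each other by a root mean square of 0.113 on the log2 scale over the 6 muscle libraries and 0.821 over the 6 liver libraries. In liver, Bhlhe41 differed from Dbp by 0.475 and from Tef by 0.309. Its liver values rest on 9 to 41 counts, and the part of counting error in these liver differences was not tested. These are descriptions over libraries that share genotype and animals.

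Nfil3 in muscle was at 34.3, 26.7 and 33.8 CPM in WT animals 6, 8 and 9 and at 20.8, 18.05 and 30.2 CPM in R135W animals 5, 7 and 12. Animal 12 lay within the WT range and the other R135W muscles below it. The log2 fold change was -0.46 (SE 0.17, edgeR adjusted p = 0.326), and -0.70 without R135W animal 12 (adjusted p = 0.0782). Rora was at 175, 180 and 169 CPM in WT and at 142, 154 and 150 CPM in R135W, all below the lowest WT muscle. With means of 175 ± 5.71 and 149 ± 5.96 CPM (SD, n = 3 each) this small difference of -0.24 on the log2 scale (SE 0.06) had an adjusted p of 0.121.

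**Figure D4:**
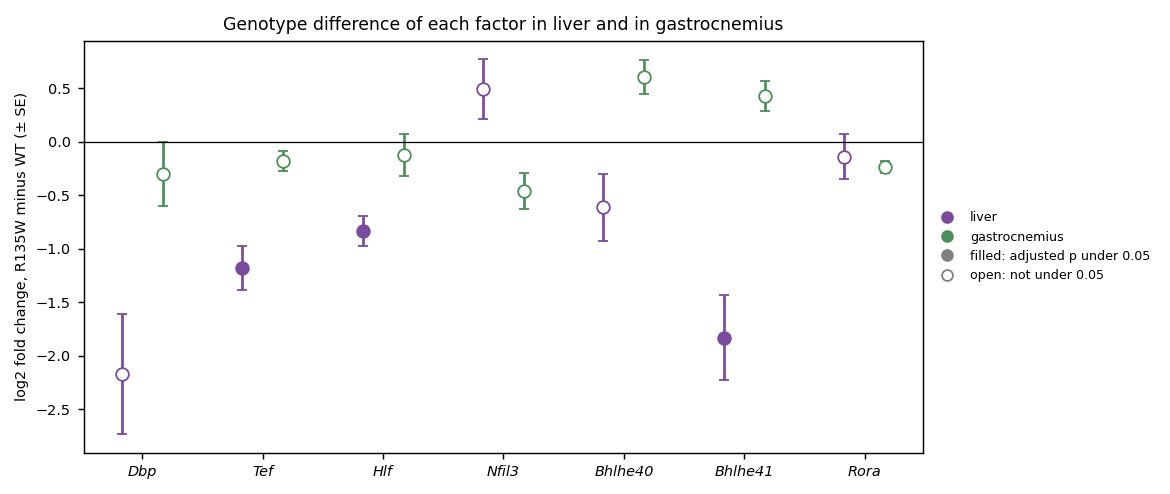
Genotype difference of each of the 7 genes in liver and in gastrocnemius, as log2 fold change of R135W against WT with bars of 1 SE, filled where the adjusted p is under 0.05. The filled points are Tef (-1.18), Hlf (-0.84) and Bhlhe41 (-1.83) in liver, and Bhlhe40 and Bhlhe41 have opposite signs in the 2 tissues.

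Whether the genotype difference itself differed between liver and muscle was tested as an interaction over all 12 libraries. None of the 7 was called by edgeR, where 0.13% of 15414 genes were. At an unadjusted p under 0.05 there were 6 of 7, against 9.95% of all genes, and all but Rora were among them. DESeq2 called 2 of the 7 and limma-voom 0, beside 184 and 7 genes called in all, where edgeR called 20. Bhlhe41 came nearest, with a liver effect lower than the muscle effect by 2.28 (log2 difference -2.28, SE 0.41, edgeR adjusted p = 0.0561). DESeq2 gave it an adjusted p of 3.28e-05 and limma-voom one of 0.224. Its liver side rests on 15 to 41 counts in WT and 9 to 10 in R135W. For Tef the difference was -1.01 (SE 0.25, edgeR adjusted p = 0.172), with 0.0152 from DESeq2. The other values were -1.89 for Dbp (SE 0.72), -1.22 for Bhlhe40 (SE 0.41), -0.72 for Hlf (SE 0.26), 0.94 for Nfil3 (SE 0.37) and 0.09 for Rora (SE 0.25). Without the liver of WT animal 6, edgeR called Bhlhe41 (-2.57, adjusted p = 0.0189) and Tef (-1.20, adjusted p = 0.0291). Bhlhe40 was called without the liver of R135W animal 5 (-1.73, adjusted p = 0.0407), and Bhlhe41 without the muscle of R135W animal 7 (-2.45, adjusted p = 0.0267). With WT animal 6 left out in both tissues, Bhlhe41 was called at -2.62 (adjusted p = 0.0469).

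In WT mice, muscle had more Bhlhe41, Rora and Tef and less Hlf and Bhlhe40 than liver, with 3 genes called higher and 2 lower by edgeR, beside 40.6% of 14858 genes called higher and 40.9% lower. These 5 were also apart between the tissues, as were 84.2% of all genes, and 81.5% of all genes were called in either direction, so 5 of 7 is no more than the general share. Bhlhe41 was 23.4-fold higher in muscle (log2 fold change 4.55, SE 0.22, adjusted p = 5.61e-08). Rora was higher by 1.37 (SE 0.10, adjusted p = 1.03e-06) and Tef by 0.98 (SE 0.19, adjusted p = 0.00104). Hlf was lower by 2.56 on the log2 scale (log2 fold change -2.56, SE 0.18, adjusted p = 7.73e-07) and Bhlhe40 by 1.14 (log2 fold change -1.14, SE 0.15, adjusted p = 5.87e-05). Dbp (0.18, SE 0.51, adjusted p = 0.759) and Nfil3 (0.32, SE 0.27, adjusted p = 0.305) were not called. Without the liver of WT animal 6 the Nfil3 value was 0.60 (adjusted p = 0.0530), and without that of WT animal 9 it was 0.03.

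Set in order by CPM per kilobase of exon, WT liver ran from Bhlhe40 (75.5) over Tef (38.9), Dbp (33.5), Nfil3 (12.4), Hlf (11.9) and Rora (5.33) to Bhlhe41 (0.203). Tef and Dbp overlapped over the 3 libraries, as did Dbp and Nfil3, and Nfil3 and Hlf. In R135W liver Bhlhe40 (49.6) was followed by Nfil3 (17.5) and Tef (17.2), which overlapped, then by Dbp (7.47), Hlf (6.71) and Rora (4.85), each overlapping the next, and Bhlhe41 (0.0579). Nfil3 thus stood level with Tef in R135W liver, while in WT liver its mean was below the means of both Tef and Dbp. In WT muscle Tef led (78.7), then came Dbp (38.7) and Bhlhe40 (35.2), which overlapped, Nfil3 (15.9) and Rora (14.2), which overlapped, Bhlhe41 (4.93) and Hlf (2.07). R135W muscle had Tef (69.6), Bhlhe40 (53.7), Dbp (31.5), Rora (12.1) and Nfil3 (11.6), the last pair overlapping, then Bhlhe41 (6.64) and Hlf (1.90). Hlf made up 10.6% to 21.0% of the PAR bZIP sum in WT livers and 19.3% to 26.4% in R135W livers, and 1.42% to 2.09% in the muscle libraries of both genotypes.

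Genes that act around these factors were read from lists of the core clock, of PAR bZIP targets, of ROR and REV-ERB targets, of other rhythmic genes and of the C/EBP family, a related group of bZIP factors. These lists too were chosen with earlier results of these data known, so their counts are a description. In liver edgeR called 2 of 17 core clock genes tested, both higher, beside 2.76% of all genes called higher and 0.524% lower. DESeq2 called 5, 2 higher and 3 lower, and limma-voom 1, higher, beside 781 and 400 genes called in all. At an unadjusted p under 0.05 edgeR had 6, 2 higher and 4 lower, against 17.6% of all genes, and the list's median log2 fold change was -0.18. The 2 called by edgeR were Arntl (1.40, SE 0.21, edgeR adjusted p = 0.0140) and Npas2 (2.01, SE 0.43, adjusted p = 0.0425), both of the positive arm. Clock, of the same arm, had a log2 fold change of -0.02 (adjusted p = 0.961). The 4 lower at an unadjusted p under 0.05 were Per2 (-1.20, adjusted p = 0.0862), Per3 (-1.995, adjusted p = 0.0713), Nr1d2, a REV-ERB gene (-0.73, adjusted p = 0.0727), and Ciart (-2.23, adjusted p = 0.171). Clock and these 4 are named after their values were seen. Leaving out 1 liver at a time, Arntl stayed called in 4 of 6 fits and Npas2 in 0. The same 2 were the only ones called by edgeR among 16 ROR and REV-ERB targets (median -0.29), where DESeq2 called 2 and limma-voom 1. Arntl and Npas2 were also the only 2 of these 16 at an unadjusted p under 0.05, against 17.6% of all genes.

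Of 18 PAR bZIP targets tested in liver, edgeR called 3 lower and 1 higher, beside 0.524% and 2.76% of all genes. DESeq2 called 7 lower and 1 higher, and limma-voom 3 lower, beside 781 and 400 genes called in all. At an unadjusted p under 0.05 there were 10, 9 of them lower, against 17.6% of all genes. A negative change was seen in 15 of 18, against 50.7% of all genes, and the median was -0.74. Acot4, an acyl-CoA thioesterase of peroxisomes, was at 59.0, 72.0 and 50.4 CPM in WT animals 6, 8 and 9 and at 32.1, 33.6 and 25.5 CPM in R135W animals 5, 7 and 12, and fell by 0.996 on the log2 scale (SE 0.16, edgeR adjusted p = 0.0183). Its groups were apart. Its neighbour in function Acot3 fell by 1.40 (SE 0.24, adjusted p = 0.0217), and Cyp2c37, a cytochrome P450, by 1.08 (SE 0.18, adjusted p = 0.0197). These calls held in 4, 2 and 3 of 6 fits with 1 liver left out, for Acot4, Acot3 and Cyp2c37 in that order. Acot3 and Acot4 are close paralogs, as is Cyp2c37 of other Cyp2c genes, so fragments could be split between copies. The gene that rose, named after its values were seen, was Lpl, lipoprotein lipase (2.13, SE 0.43, adjusted p = 0.0344). It was at 8.82 to 14.1 CPM in WT livers and at 24.4 to 86.0 CPM in R135W livers, and was called in 2 of 6 fits with 1 liver left out. Lpl is also made by macrophages, whose markers moved with the genotype as given above, and their part in its level was not tested.

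All 9 other rhythmic genes tested had a negative change in liver (median -0.53), against 50.7% of all genes, and 6 were at an unadjusted p under 0.05, against 17.6%. With edgeR 2 were called, both lower, beside 0.524% of all genes called lower. DESeq2 and limma-voom each called 2, both lower, beside 781 and 400 genes called in all. By edgeR, Rgs16, a regulator of G protein signalling (-1.50, SE 0.29, edgeR adjusted p = 0.0313), and Ppara, the fatty acid sensing nuclear receptor (-0.65, SE 0.14, adjusted p = 0.0437), fell. Leaving out 1 liver, Rgs16 stayed called in 3 of 6 fits and Ppara in 0. None of 5 C/EBP genes was called by any of the 3 tools, and 0 were at an unadjusted p under 0.05 (median -0.15). In muscle edgeR called none of the 16 core clock genes tested (3 at an unadjusted p under 0.05), 8 PAR bZIP targets (1), 10 ROR and REV-ERB targets (3), 9 other rhythmic genes (4) and 4 C/EBP genes (0), beside 11.5% of all genes at that unadjusted p. DESeq2 called 1 of the other rhythmic genes in muscle and none of the other lists there, and limma-voom called none.

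For the 2 members that varied most around their tissue means, Dbp (SD 1.04, log2 CPM) and Bhlhe41 (SD 0.725), the genes most like them over the 12 libraries were sought among 11112 genes for Dbp and 11113 for Bhlhe41, which is itself under the minimum level for a candidate in liver. Dbp lay closest to Per3, a period gene of the clock's negative arm, with a root mean square difference of 0.307. Thrsp, a gene of fatty acid synthesis, followed at 0.492, and Per2 at 0.507, where the median over all candidates was 1.01. Bhlhe41 lay closest to Per3 (0.341), Tef (0.343) and Sqle, squalene epoxidase of cholesterol synthesis (0.358), where the median was 0.710. These likenesses hold both the genotype difference and the spread between animals.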

How the data were processed

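The authors deposited raw counts of fragments per UCSC mm10 gene, 1 library per file and none pooled. Per the file headers, featureCounts 1.5.2 counted pairs over exons from primary alignments, ignored strand, and credited a fragment to every gene it touched. The aligner was STAR 2.4.0, as the submitters' processing notes name it.

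Genotype was tested within a tissue on its 6 libraries with edgeR 4.0.16 (R 4.3.3): TMM, filterByExpr, quasi-likelihood test, Benjamini-Hochberg adjustment over all tested genes. The SE was taken as the size of the log2 change over the root of its F value. CPM use TMM factors of all 12 libraries. The tissue difference was the interaction in a fit of 4 groups. All 7 genes passed the filter (10 counts at the median library size, in 3 libraries) in each comparison, Bhlhe41 in liver through WT alone.

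Animal numbers in the titles pair liver and muscle libraries. Deviations from group means correlated at 0.00475 to 0.0873 within an animal and at -0.108 to 0.0827 between animals (11113 genes). A single gene can differ from this: the SE of Dbp in the WT tissue difference was 0.51, and 0.14 with the animal as a block.

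The members and lists were chosen with earlier results of these data known. Named genes are the 7 members, up to 3 called genes per list with the smallest p, and the 3 genes most like each member with an SD over 0.5 (log2 CPM, prior count 0.5, mean of at least 1 CPM in both tissues). Alternatives were RLE factors, DESeq2 1.42.0, limma-voom (limma 3.58.1), no filter, a filter of 1 CPM in 3 libraries, age as a covariate, all 12 libraries in 1 fit, the animal as a block, and leaving out each library. Leaving out WT animal 6 in both tissues was added after seeing the data.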

Additional observations from a re-analysis of the deposited data

How the results depend on the processing

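In liver, 457 genes were called, 781 by DESeq2, 274 with age as a covariate, 1057 in a fit of all 12 libraries and 84 to 285 with 1 library left out. The number of the 7 members called was 3, and 0 to 4 with 1 library left out. Dbp was also called without a filter (adjusted p = 0.0381) and in the fit of all 12 libraries (0.0275), and Bhlhe41 was not with limma-voom (0.0708) or age (0.0612); the strict filter dropped Bhlhe41. The cause was not tested. In muscle, 121 genes were called, 274 by DESeq2, 20 in the fit of all 12 libraries and 3 to 106 with 1 library left out, with 0 to 1 members. Without WT animal 9 the muscle change of Dbp turned to 0.10 and that of Hlf to 0.05 (0.0528), and without R135W animal 7 that of Hlf to 0.03, with ranges of -0.63 to 0.10 for Dbp and -0.30 to 0.05 for Hlf. For the tissue difference, 20 genes were called, 184 by DESeq2, 7 by limma-voom, 6 without WT animal 6 in both tissues and 6 to 34 with 1 library left out. Its members called were 2 with DESeq2, 1 without a filter, 1 without WT animal 6 in both tissues and 0 to 2 with 1 library left out. The tissue difference of Rora turned to -0.23 without the liver of R135W animal 12 (range -0.23 to 0.23). In WT mice the tissue change of Dbp turned to -0.24 without the liver of animal 6 and to -0.22 without the muscle of animal 9 (range -0.24 to 0.68). With the animal as a replicate block, 16 genes and 0 members had a tissue difference. The edgeR adjusted p was 0.0845 for Bhlhe41 (-2.29), 0.0887 for Dbp (-1.89) and Tef (-0.99) and 0.0937 for Bhlhe40 (-1.29). Without the block it was 0.0561, 0.395, 0.172 and 0.327 in that order. The 5 members called between WT tissues stayed called with the block, which changed no call of a member. Over the 7 members, 363 values kept direction and side of the threshold, 13 passed it newly, 16 lost it and 6 reversed.
Depth limits Bhlhe41 in liver, with 9 to 41 counts, and groups of 3 animals limit all genes.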
